A study of Arabidopsis thaliana with 57 samples.

Results

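M317 and M318 are 2 genotype labels of Arabidopsis thaliana whose young flowers were profiled by strand-specific RNA sequencing, with 3 libraries from M317 and 2 from M318. Both came from plants with flowers scored Wt, in the set of libraries that the labels call group A (set A below). The 5 libraries were pooled and set against the 3 libraries of Col (the Columbia accession) carrying the Ctr//AGe cassette, also Wt flowers of set A, so 8 of the 57 libraries of the series are at issue. The membership follows the sample titles and uses no measured value. The sources used here do not say what the M317 and M318 plants carry or what Ctr, AGP, ARE, rMf and sMf stand for, so these names serve as labels only. The labels also give every library the same treatment entry, a change of floral structure. Per the labels, plants were transformed with transgene cassettes, and the RNA of each library was pooled from several lines of 1 flower phenotype, so a library is a pool and not a plant. Further groups of set A used below are Col with AGP//AGe and Wt, rMf or sMf flowers and Col with ARE//AGe and Wt flowers. Set B was made with other index primers, and of it the Col libraries with Wt flowers are used, with no cassette or with ARE//AGe.

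AGAMOUS (AG, AT4G18960) encodes the MADS-domain transcription factor that specifies stamens and carpels and ends the activity of the floral meristem. Its expression depends on an enhancer inside a long intron, where the floral regulators LEAFY (LFY) and WUSCHEL (WUS) bind. RNA-directed DNA methylation is the plant pathway in which noncoding transcripts give rise to small RNAs that guide DNA methylation to matching sequence, and an extra copy of a regulatory sequence can bring it upon the endogenous locus. The series title places the libraries in that setting, as profiles of noncoding RNA at a regulatory element. Reads over the enhancer on the AG strand (sense) can include AG precursor RNA. Reads on the other strand (antisense) are not part of AG mRNA where their strand is assigned correctly.

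The enhancer region (AGe) was counted over chr4:10384147-10387145 and the second region over chr4:10380701-10382800. The AG gene, transcribed from the plus strand, covers positions 10382856 to 10388539 of that chromosome. AGe spans 2999 bp and is exactly an intron in 1 of 4 transcript models. The remaining 3 place an exon of 90 bp inside it, which makes up 3.00% of its length. Whether that exon is translated was not looked up. The second region spans 2100 bp, ends 56 bp before the annotated AG start, and is named AG promoter (AGp) or M2 in the header of the table. The sources used here do not say what M2 is or whether that name applies to the M317 and M318 libraries. Every one of the 2950 stretches of 50 bases in AGe, and every one of the 2051 in the second region, occurs once in the genome (exact matches on both strands). Reads from a cassette copy and from the endogenous copy of a region would therefore map to the same place, and the counts cannot separate them.

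**Figure D1:**
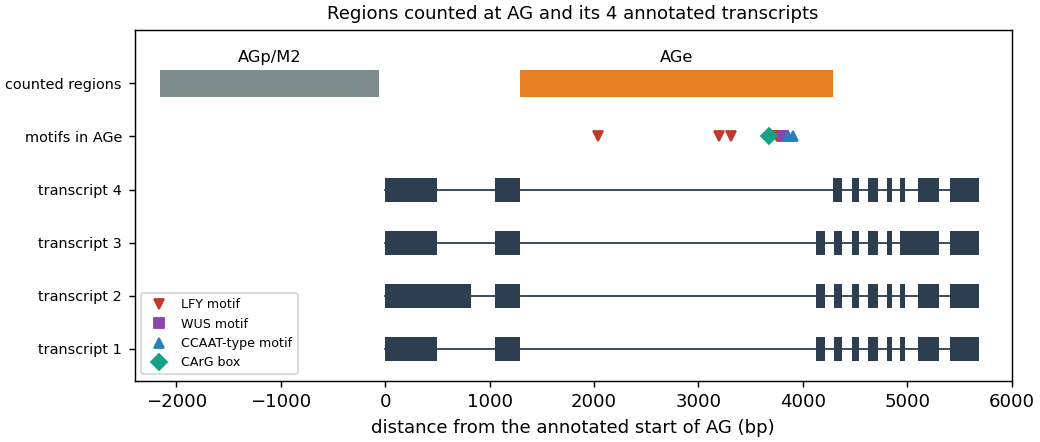
The counted regions and the annotated AG transcripts, by distance in bp from the annotated AG start. Dark boxes are exons, and the markers show 6 LFY, 1 WUS and 2 CCAATCA motifs and 1 CArG box in AGe. AGe fills the intron of 1 transcript and contains a 90-bp exon of the other 3.

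Printed below are a stretch of AGe that holds 7 motif matches and the annotated exon inside AGe. The stretch runs from the CArG box to the last CCAATCA, with 15 bases added on each side. Reads were counted over AGe as a whole, so the number over either sequence is not known. Both sequences are the plus strand of TAIR10.1, read 5′ to 3′. The first, chr4:10386516-10386779, has 264 bases with matches to 4 motifs in capitals. The second, chr4:10386967-10387086, has 120 bases with the annotated exon in capitals, because sense reads there can be spliced AG RNA.
AGe motif stretch: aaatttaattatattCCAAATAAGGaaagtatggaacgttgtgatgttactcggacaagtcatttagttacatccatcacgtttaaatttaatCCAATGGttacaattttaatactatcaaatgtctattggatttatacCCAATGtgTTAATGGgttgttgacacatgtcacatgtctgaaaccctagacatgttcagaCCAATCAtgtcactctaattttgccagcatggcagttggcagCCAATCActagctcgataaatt
AG exon inside AGe: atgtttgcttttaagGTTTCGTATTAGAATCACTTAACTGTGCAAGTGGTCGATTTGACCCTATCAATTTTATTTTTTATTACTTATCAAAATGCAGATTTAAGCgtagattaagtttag
The motifs searched on both strands were CCANTG (bound by LFY), TTAATGG (bound by WUS), CCAATCA (a conserved element of this intron) and the CArG box (bound by MADS-domain proteins such as AG). AGe holds 6 CCANTG matches, of which 1 pair overlaps on opposite strands. At least 1 CCANTG match was present in 95.7% of the 6191 windows of 2999 bp along chromosome 4, and 32.8% held 6 or more. TTAATGG occurs 1 time in AGe and in 40.1% of the windows. CCAATCA occurs 2 times in AGe. It occurs 2 or more times in 10.6% of the windows and at least 1 time in 41.0%. A CArG box occurs 1 time in AGe and in 17.5% of the windows. A match is a sequence description and was not tested for binding.

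Sequencing depth was similar in both groups. The 8 libraries had 23958021 to 33496364 uniquely mapped reads, and the multiply mapped share of mapped reads was 11.7% to 15.5% in M317 and M318 and 11.1% to 15.2% in Ctr//AGe. Levels are given as RPM, reads in the region per 1000000 uniquely mapped reads of the library. Neither uniquely mapped reads, the multiply mapped share nor the mapped share passed a two-sided exact permutation test between the groups (p = 0.643, 0.929 and 0.321, adjusted over these 3 measures 0.929 for each). In M317 replicate 3 the deposited mapping rate was 94.9%, whereas its mapped over total reads were 93.6%. No floral marker gene is counted as such in the table. AGe sense reads come nearest, and every one of the 8 libraries held 166 or more of them. They can be AG RNA or RNA from a cassette copy of AGe. In bulk tissue, fewer AG-expressing cells, less AG RNA per cell and less sense RNA from any cassette copy cannot be told apart.

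AGe sense reads, the strand of AG RNA, were lower in M317 and M318 than with Ctr//AGe. M317 had 5.24, 8.32 and 5.57 RPM in replicates 1, 2 and 3 (174, 251 and 166 reads). M318 had 7.27 and 7.46 RPM in replicates 1 and 2 (225 and 235 reads). Ctr//AGe had 11.4, 13.4 and 12.4 RPM in replicates 1, 2 and 3 (382, 418 and 298 reads). The groups did not overlap: the lowest Ctr//AGe library was 1.37 times the highest library of the lines, which was M317 replicate 2. The mean was 6.77 ± 1.31 RPM (SD, n = 5) in the lines and 12.4 ± 1.01 RPM (SD, n = 3) with Ctr//AGe. The difference was 1.83-fold (log2 -0.88 ± 0.17 SE, 95% interval -1.21 to -0.54, edgeR quasi-likelihood adjusted p = 1.92e-05).

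AGe antisense reads, on the strand opposite to AG mRNA, were also lower in the lines. What part of them was sense RNA assigned to the wrong strand was not tested. M317 had 0.392, 0.763 and 0.369 RPM in replicates 1, 2 and 3, from 13, 23 and 11 reads. M318 had 0.549 and 0.412 RPM in replicates 1 and 2, from 17 and 13 reads. Ctr//AGe had 1.58, 1.09 and 1.09 RPM in replicates 1, 2 and 3, from 53, 34 and 26 reads. Again no library of the lines reached the lowest Ctr//AGe library, which stood at 1.42 times M317 replicate 2. The mean was 0.497 ± 0.164 RPM (SD, n = 5) in the lines and 1.25 ± 0.285 RPM (SD, n = 3) with Ctr//AGe. The difference was 2.54-fold (log2 -1.34 ± 0.32 SE, 95% interval -1.98 to -0.70, edgeR adjusted p = 0.000226).

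Few antisense reads lie behind each library, and the counting error of single libraries is wide. The exact 95% Poisson interval was 0.209 to 0.670 RPM for M317 replicate 1 and 0.484 to 1.14 RPM for M317 replicate 2. It was 0.709 to 1.59 RPM for Ctr//AGe replicate 3, which overlaps that of M317 replicate 2. Summed over libraries, the lines held 77 antisense and 1051 sense reads. These intervals cover counting error only, since each is computed from the count of 1 library and holds no spread between libraries. They take reads as independent. No collapsing of reads to molecules is described, so the counting error itself may be larger.

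**Figure D2:**
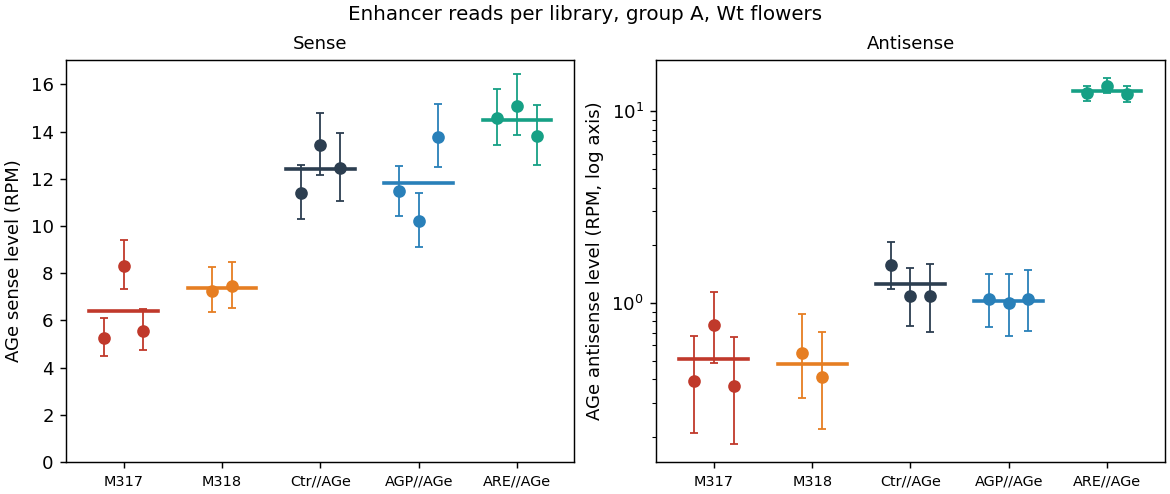
AGe sense level (left, RPM) and AGe antisense level (right, RPM on a log axis) of each library of the 5 group A genotypes with Wt flowers. Points are libraries with exact 95% Poisson counting intervals, and bars are group means. All 5 M317 and M318 libraries lie below all 3 Ctr//AGe libraries on both strands.

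Of the 4 features (2 regions by 2 strands), edgeR called 2 as lower in the lines than with Ctr//AGe at an adjusted p under 0.05, or 50% of all features tested, and none as higher. These were AGe sense and AGe antisense. The exact permutation test over the 8 libraries, which takes no spread from other groups, gave p = 0.0357 for sense, for antisense and for both strands summed (two-sided, adjusted over these 3 measures 0.0357). That is the smallest p that its 56 splits can give. M317 replicates 1 and 3 had AGe counts within sampling noise of each other. With this pair counted as 1 sample, the edgeR differences were log2 -0.81 sense and -1.30 antisense (adjusted p = 0.000131 and 0.000566), and the exact test reached 0.0571, the smallest it then allows. Both strands summed, the lines had 7.27 ± 1.45 RPM (SD, n = 5) and Ctr//AGe 13.7 ± 0.777 RPM (SD, n = 3). The labels give the 5 libraries 2 genotypes, and the test treats them as replicates of 1 group.

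The antisense share of AGe reads measures whether both strands were lower to the same degree, and it does not depend on library size. It was 6.95%, 8.39% and 6.21% in M317 replicates 1, 2 and 3, and 7.02% and 5.24% in M318 replicates 1 and 2. With Ctr//AGe it was 12.2%, 7.52% and 8.02% in replicates 1, 2 and 3. Here the groups overlapped, since M317 replicate 2 lay above Ctr//AGe replicates 2 and 3. The mean share was 6.77% ± 1.16 (SD, n = 5) in the lines and 9.24% ± 2.56 (SD, n = 3) with Ctr//AGe, and the difference did not pass (two-sided exact permutation p = 0.107, adjusted over 3 shares 0.143). Without Ctr//AGe replicate 1 the difference of means was -1.01 points in place of -2.48.

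**Figure D3:**
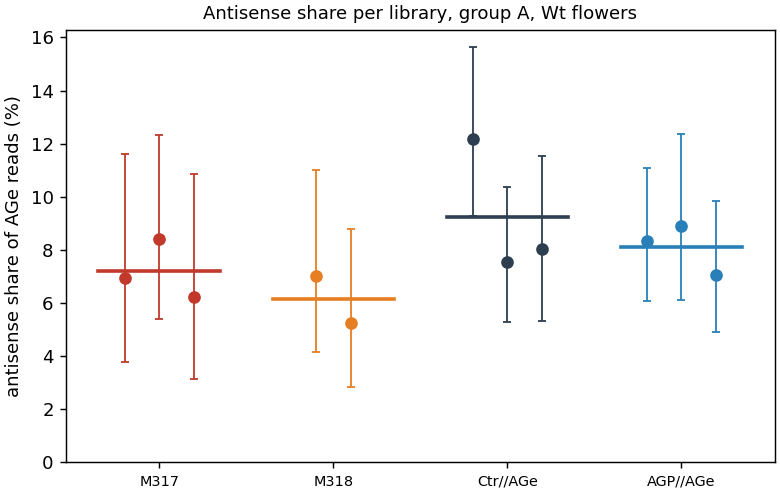
Antisense share of AGe reads (%) in each library, with exact 95% Clopper-Pearson intervals (counting error only) and the group mean as a bar. The M317 and M318 libraries lie between 5.24% and 8.39%, within which 2 of the 3 Ctr//AGe libraries also fall.

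The second region, AG promoter or M2, had no read on either strand in any of the 5 M317 and M318 libraries. Over their summed depth of 155636368 uniquely mapped reads, a count of 0 allows up to 0.0193 RPM per strand. Ctr//AGe held 1 antisense read, in replicate 2, and 0 sense reads. Both groups were thus at or under the limit of 3 reads, and no fold is given (edgeR adjusted p = 1 for sense and 0.272 for antisense).

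M318 and M317 did not differ by more than the spread between libraries. The sense difference, M318 minus M317, was log2 0.21 ± 0.22 SE (95% interval -0.23 to 0.64, edgeR adjusted p = 1). The antisense difference was log2 -0.07 ± 0.46 SE (95% interval -1.01 to 0.86, edgeR adjusted p = 1). These intervals are wide, so the genotypes are not shown to be alike. Of the 4 features edgeR called 0, or 0% of all features, and the count was also 0 without adjustment (p under 0.05). Those of the second region had no read in either genotype and could not be called. With them left out, the edgeR adjusted p was 0.664 for sense and 0.873 for antisense. The alternative tools DESeq2 and limma each called 0.

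The spread among the libraries of the 2 genotypes was unequal. M317 replicate 2 had the highest sense and antisense level of the 5 libraries and also their highest multiply mapped share, 15.5%, against 13.9% in M317 replicates 1 and 3. The part of that library's mapping in its level was not tested. In M317 the sense counts varied 13.9 times as much as counting error alone (chi-square per degree of freedom), whereas in M318 the value was 0.0771 and in Ctr//AGe 2.66. M318 has only 2 libraries, so its small spread is itself poorly known. Taken alone, M317 was below Ctr//AGe by log2 -0.96 (sense) and -1.31 (antisense), and M318 by log2 -0.75 and -1.39.

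The low AGe level of the lines also stood against the other Wt flowers of set A. Col with AGP//AGe and Wt flowers had AGe sense levels of 11.5, 10.2 and 13.8 RPM in replicates 1, 2 and 3. The lines were 1.74-fold lower (log2 -0.80 ± 0.17 SE, edgeR adjusted p = 7.85e-05). Its antisense levels were 1.04, 0.994 and 1.05 RPM, and the lines were 2.07-fold lower (log2 -1.05 ± 0.32 SE, edgeR adjusted p = 0.00210). All 4 features, or 100% of those tested, were called lower in the lines. In the second region AGP//AGe replicates 1, 2 and 3 held 9, 1 and 14 sense reads and 10, 1 and 4 antisense reads, so replicate 2 was under the limit of 3 reads on both strands. The group averaged 0.238 RPM sense and 0.137 RPM antisense, and against these means the lines, at 0 reads, were at least 12.3-fold and 7.11-fold lower (edgeR adjusted p = 0.000368 and 9.14e-05). The limit of 3 reads over the 5 libraries was used for these bounds. They assume that the column was counted over 1 region in both groups. They also take the AGP//AGe means as exact, whereas the SDs were 0.214 RPM sense and 0.108 RPM antisense (n = 3). The sense bound fell to 6.62-fold when AGP//AGe replicate 3 was left out, and the antisense bound to 4.23-fold when replicate 1 was. The antisense share was 8.09% ± 0.933 (SD, n = 3) with AGP//AGe and overlapped that of the lines (two-sided exact permutation p = 0.143, adjusted over 3 shares 0.143).

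Col with ARE//AGe and Wt flowers differed from the lines most on the antisense strand. Its antisense levels were 12.4, 13.6 and 12.3 RPM in replicates 1, 2 and 3, and the lines were 25.5-fold lower (log2 -4.68 ± 0.27 SE, edgeR adjusted p = 8.99e-21). Its sense levels were 14.6, 15.1 and 13.8 RPM, and the lines were 2.14-fold lower (log2 -1.10 ± 0.17 SE, edgeR adjusted p = 8.57e-08). The call covered 2 of 4 features, or 50%, because neither group had a read in the second region. The antisense share was 46.8% ± 0.751 (SD, n = 3) with ARE//AGe, and no library of the lines came near it. The exact test reached its smallest p of 0.0357, which is 0.107 after adjustment over 3 shares. These comparisons and that with Ctr//AGe share the 5 libraries of the lines, so their results are not independent.

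Among the 7 groups of set A, M317 and M318 had the lowest mean AGe levels on both strands. The group next in order on both strands was Col with AGP//AGe and rMf flowers, at 7.92 ± 0.972 RPM sense and 0.765 ± 0.380 RPM antisense (SD, n = 3). Its sense levels of 8.88, 6.94 and 7.94 RPM in replicates 1, 2 and 3 overlapped those of the lines, and its antisense levels of 1.07, 0.891 and 0.338 RPM ranged from below to above them. The flower phenotype differs between these groups, and no test was run. All 3 libraries of AGP//AGe with sMf flowers lay above the lines, at 12.5 to 16.7 RPM sense and 0.980 to 1.39 RPM antisense.

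Col without a cassette was measured only in set B. Its AGe sense levels were 7.21, 7.40 and 9.0 RPM, of which 2 of 3 fell inside the range of the lines. Its antisense levels were 0.265, 0.30 and 0.193 RPM, below all 5 libraries of the lines. Set and genotype differ together here and cannot be told apart. Col with ARE//AGe, the group present in both sets, had sense means of 14.5 RPM in A and 5.31 RPM in B, so sense levels in particular are not comparable across sets.

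**Figure D4:**
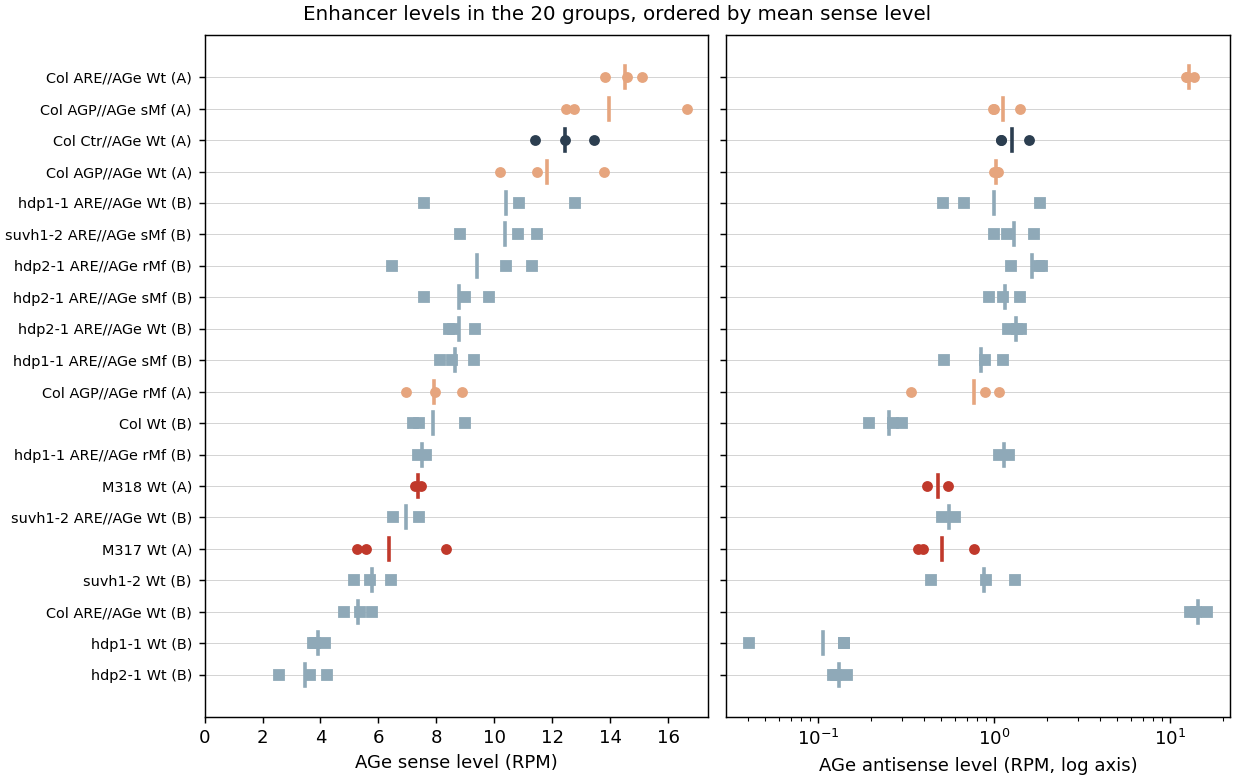
AGe sense level (left, RPM) and antisense level (right, RPM on a log axis) of every library in the 20 groups, ordered by mean sense level, with the mean as a bar. Circles are set A and squares set B, as the letter after each name says. M317 and M318 (red) have the lowest means of the 7 groups of set A on both strands.

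The difference between the lines and Ctr//AGe did not rest on 1 library. With each of the 8 libraries left out in turn, the sense difference ran from log2 -0.96 to -0.80 and the antisense difference from log2 -1.54 to -1.13. The largest edgeR adjusted p among these was 0.00753, for antisense without Ctr//AGe replicate 1, the Ctr//AGe library with the highest antisense level.

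**Figure D5:**
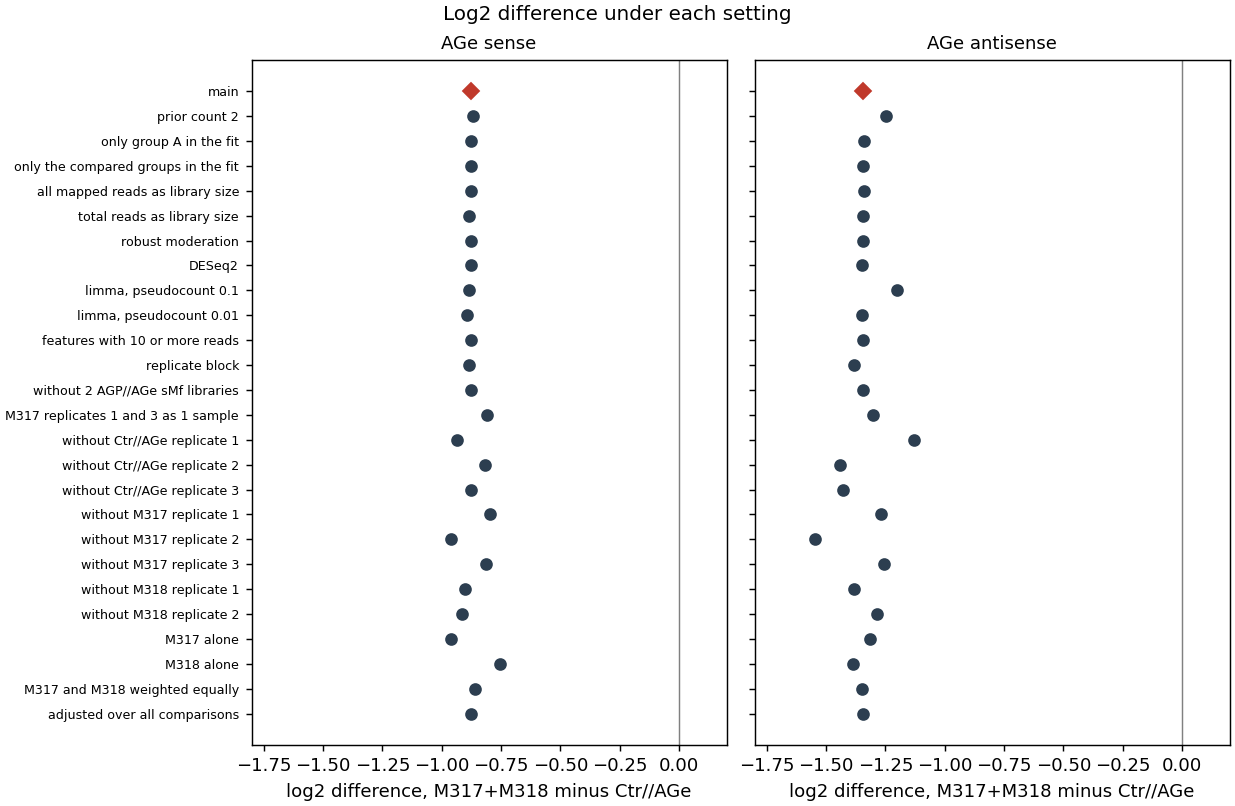
Log2 difference in AGe sense (left) and antisense (right) reads, M317 and M318 minus Ctr//AGe, under the main setting (red diamond) and 25 others (circles). All values lie below 0, between -0.96 and -0.75 for sense and between -1.54 and -1.13 for antisense.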

How the data were processed

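Stranded total RNA libraries were made after DNase treatment and ribosomal RNA depletion, per the labels' protocols. The authors deposited raw read counts per strand over 2 regions, library read totals, the percent of mapped reads, and RPM values. Per the submitters' processing notes, the tools were HISAT2 and HTSeq 0.13.5 with build TAIR10, with settings that these sources do not state. The deposited RPM values equal count / uniquely mapped reads × 1000000 (largest gap 0.0), although the header speaks of mapped reads. Sequences and annotation are from the RefSeq assembly TAIR10.1, in which AGe coincides base for base with an AG intron.

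Here, edgeR 4.0.16 (R 4.3.3) was fitted to the counts of all 57 libraries with uniquely mapped reads as library size, 1 mean per group with M317 and M318 sharing a mean (19 groups, or 20 when they were compared), 1 common dispersion (0.0355, or 0.0364 with 20 groups), no trend and a prior count of 0.125. With 4 features, no size factors or trend could be estimated from the table. An adjusted p (Benjamini-Hochberg, 4 features) under 0.05 is called. The SE of an edgeR difference was computed as its absolute log2 value over the square root of the F statistic. The 95% intervals were built from that SE and the t distribution. Exact tests used SciPy 1.17.1. Alternatives included DESeq2 1.42.0 and limma 3.58.1. All 4 features are named in each comparison. The members and comparisons were chosen with earlier results of these data known. Nothing says that the pools came from separate cultures, so p-values measure the spread between pools. AGe counts agreed within sampling noise in M318 replicates 1 and 2 and in M317 replicates 1 and 3. The M318 pair differed in mapped share by 0.121 points and in multiply mapped share by 0.151 points (23.1 and 19.7 times the counting error) and was kept as separate libraries. For the M317 pair the multiply mapped share differed by 0.0255 points (3.14 times the counting error). Its computed mapped shares, 94.6% and 93.6%, differed by 0.932 points (174 times), more than in the M318 pair. The deposited mapping rates were 94.6% and 94.9%, so the computed share of replicate 3 departs from its deposited rate. These measures do not settle whether the M317 pair is 1 library, so results are also given with it counted as 1 sample, an alternative chosen after seeing the data. The replicate numbers were not taken to pair the samples. No other gene is in the table, so the floral marker genes listed for a check have no value. For AG there are only the AGe reads, which a cassette copy can add to.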

Additional observations from a re-analysis of the deposited data

How the results depend on the processing

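No call between the lines and Ctr//AGe, AGP//AGe or ARE//AGe was lost under any of the alternatives run with edgeR, DESeq2 and limma, and none was gained between M318 and M317. These were other prior counts, pseudocounts, library sizes, samples in the fit, adjustment, a filter on low counts, robust moderation, each library left out, and, added after seeing the data, leaving out 2 AGP//AGe sMf libraries whose read totals disagree and counting M317 replicates 1 and 3 as 1 sample. Some alternatives changed no adjusted p: the other prior count and robust moderation in every comparison, and the low-count filter for AGP//AGe. With these included, 218 of 220 fitted differences kept direction and call. The other 2 are the M318 to M317 antisense difference, which was never called and ran from log2 -0.29 to 0.33 with 1 library left out. It was 0.33 without M317 replicate 2 and 0.12 without M318 replicate 2. With a replicate block the differences from Ctr//AGe were log2 -0.88 sense and -1.38 antisense, and no call changed. The numbers share no stated origin. To compare them, deviations from group means of log2(RPM + 0.1) were taken, sense and antisense together. Between same-numbered libraries these deviations correlated above 0.1 in 3 of 10 pairs of groups. The correlations ran from -0.89 (M318 with ARE//AGe) to 0.92 (M318 with Ctr//AGe), and M317 with ARE//AGe gave 0.90. Each rests on 4 or 6 values from 2 or 3 shared numbers, too few to tell whether the numbers pair the samples. In M318 the deviations of its 2 libraries are equal and opposite by construction. Leaving out 1 library, or counting the M317 pair as 1, makes the exact tests unable to pass 0.05, with a smallest p of 0.0571 or 0.0952, so their p then says nothing on stability. The differences in mean RPM from Ctr//AGe stayed between -6.86 and -5.99 for both strands, -6.16 and -5.15 for sense, and -0.840 and -0.592 for antisense with 1 library left out, and were -6.04, -5.31 and -0.727 with the M317 pair as 1 sample. The antisense share was limited by 11 to 53 antisense reads per library.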
